A study of Homo sapiens with 6 samples.

Results

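The hairpins mir-28 and mir-151a (hsa-mir-28 and hsa-mir-151a in the table) are the related precursors of miR-28-3p and miR-151a-3p. They were chosen from the deposited variation scores, in which they moved in opposite directions when DICER lost its helicase domain, and they make up 2 of the 147 microRNA (miRNA) hairpins in the table. Small RNA was sequenced from HCT116 DICER-KO cells, a human colorectal carcinoma line without its own DICER. All 6 samples share this knockout background. In 3 samples the cells had received a pXG plasmid for full-length DICER (DICER-WT rescue), and in the other 3 a pXG plasmid for DICER without its helicase domain (DICER-delHelicase rescue). RNA was taken 48 h after Lipofectamine transfection. Transfection reaches only part of a culture and sets its own level of DICER, and no label tells whether the replicates are separate cultures. None of the 6 samples is from untransfected knockout cells.

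DICER cuts a precursor miRNA near its apical loop, which fixes where the miRNA of the 3′ arm (the 3p miRNA) begins. A shift of the cut moves the seed, bases 2 to 8, which pairs with target messenger RNAs. The helicase domain of DICER lies on the loop side of the bound precursor and also binds the partner protein TRBP. The miR-28 family is thought to descend from LINE-2, an old family of mobile elements. Its arms are thought to come from neighbouring copies in opposite orientation, which gives the precursor a long, well paired stem.

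The mir-28 hairpin is annotated on chromosome 3 (GRCh38, chr3:188688781-188688866, plus strand), in an intron of LPP, a gene for a LIM-domain protein of focal adhesions. The deposited sequences are 106 nt for mir-28 and 110 nt for mir-151a. Each holds the annotated hairpin (86 and 90 nt) with 10 nt more at either end. The miRNA miR-28-3p is shown first, since its 5′ end is the end that DICER makes, with the seed in capitals (RefSeq, GRCh38.p14, chr3:188688834-188688855). The deposited mir-28 hairpin follows, first with miR-28-3p in capitals and then with the unpaired bases of the predicted main stem and its loop in capitals. Letters of mir-151a are not shown, and its structure is given in words.

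miR-28-3p: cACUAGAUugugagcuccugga

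mir-28, miRNA in capitals: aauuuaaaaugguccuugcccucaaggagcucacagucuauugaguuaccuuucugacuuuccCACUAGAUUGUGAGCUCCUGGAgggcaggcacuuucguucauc

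mir-28, unpaired bases in capitals: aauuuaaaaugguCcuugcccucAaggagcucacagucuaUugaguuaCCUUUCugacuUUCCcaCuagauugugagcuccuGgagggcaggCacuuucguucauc

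Of the 127 miRNA names in the table, 116 had a mature sequence in the RefSeq table used, and among these miR-28-3p was the only name with its seed. The other miRNA of the pair, miR-151a-3p, was not among the 116 and was not compared.

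The hairpin of mir-151a lies at 140732564 to 140732653 of chromosome 8 (GRCh38, minus strand). It too is intronic, within PTK2, the gene of focal adhesion kinase.

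With DICER-WT, mir-28 had a variation score of 0.171 and mir-151a one of 0.331. With DICER-delHelicase the score of mir-28 was 0.710 and that of mir-151a 0.155. The order of the hairpins was thus exchanged: mir-151a lay 0.159 above mir-28 with DICER-WT, and its score minus that of mir-28 was -0.555 with DICER-delHelicase. The score is the authors' "global variation", deposited as 1 value per hairpin and construct. No source used here gives its formula, or says how the 3 samples of a group entered it. The sequencing depth is unknown and there is no value per sample, so these differences have no replicate check and no test was run. Higher scores are read here as more variable products, after the column's name.

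The score of mir-28 was higher by 0.539 without the helicase domain, which is 4.15 times its DICER-WT value. That of mir-151a changed by -0.176, to 46.9% of its DICER-WT value. Over all 147 hairpins the DICER-WT scores had a median of 0.0804 and quartiles of 0.0174 and 0.187. The DICER-delHelicase scores had a median of 0.146 and quartiles of 0.0260 and 0.351, and the median change was 0.0261. With DICER-WT, mir-28 lay inside this range (rank 43 from the highest) and mir-151a above its upper quartile (rank 24). With DICER-delHelicase, mir-28 lay above the upper quartile (rank 16) and mir-151a close to the median (rank 72). As background to these changes, 37.4% of hairpins (55 of 147) increased by at least 0.1, and 7.48% (11 of 147) decreased by at least 0.1. These counts use the values by which the pair was chosen and are given as a description.

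**Figure D1:**
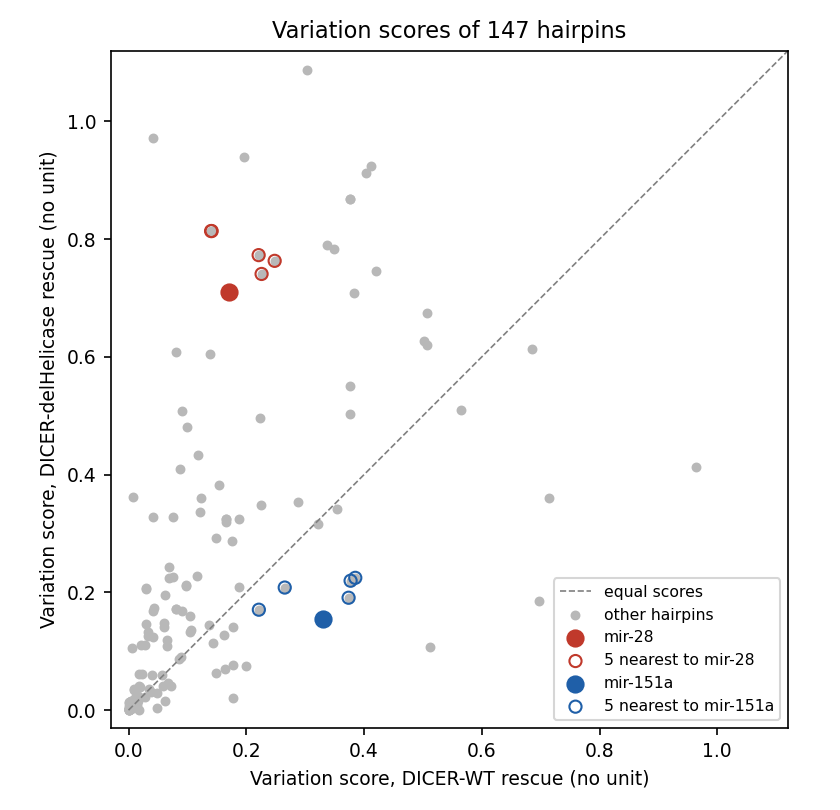
Variation score (no unit) of each of the 147 hairpins with DICER-WT (x axis) against DICER-delHelicase (y axis). Filled coloured points are mir-28 (0.171 and 0.710, above the dashed line of equal scores) and mir-151a (0.331 and 0.155, below it), and open rings mark the 5 hairpins nearest to each.

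Ordered by change, mir-28 was the seventh from the top. Just above it stood mir-30c-1 (0.552) and just below it mir-424 (0.527), followed by mir-126 and mir-7-1 (0.515 each). The next places above held both mir-3158 copies, with changes of 0.673 for mir-3158-1 and 0.674 for mir-3158-2. From the other end mir-151a was the sixth. Larger decreases nearest to it were those of mir-425 (-0.183), mir-145 (-0.353) and mir-3928 (-0.405), and the next smaller ones were mir-101-1 (-0.160), mir-101-2 (-0.157) and mir-106b (-0.156). So mir-151a sat in a tight group of decreases between mir-425 and mir-106b, while the step from it to mir-145 was larger than the spread within that group.

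In the plane of both scores, the 5 hairpins nearest to mir-28 were mir-7-1 (distance 0.0629), mir-30c-1 (0.0802), mir-126 (0.0936), mir-3158-1 (0.108) and mir-3158-2 (0.108). The neighbours of mir-151a were mir-425 (0.0560), mir-101-2 (0.0797), mir-760 (0.0842), mir-101-1 (0.0884) and let-7d (0.110). Likeness here is the straight-line distance over only 2 values per hairpin. The copies of mir-101 make the same miRNA, as do those of mir-3158, so they are not independent points.

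The table's other entries, which their headers tie to DICER-WT, were alike for the main end and unlike for the class. The main 5′ end, read here as an offset in nucleotides from a reference position that the header does not define, was 0 for both hairpins, as in 140 of 147. Of the 11 hairpins with a decrease of at least 0.1, only 6 had an offset of 0, mir-151a among them, and the other 5 had a main end elsewhere. Among offset-0 hairpins mir-151a had the second largest decrease, after mir-3928. The class headed 2-nt was No for mir-28 and Yes for mir-151a. The header names DICER-WT isomirs as its source and does not define the class. Copies that make the same miRNA can differ in class at nearly equal changes, as mir-3158-1 (Yes, 0.673) and mir-3158-2 (No, 0.674) did. In the whole table it was Yes for 73 hairpins and No for 74, and it was Yes for 26 of the 55 with an increase of at least 0.1 and for 7 of the 11 with a decrease of that size.

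By sequence the 2 hairpins were each other's closest match in the table. A global alignment gave 60.8% identical columns, against a median of 46.1% over 10704 pairs of hairpins with different miRNA names. Only 47 pairs were more alike. The next closest hairpin to either was mir-101-1, with 54.6% to mir-28 and 54.8% to mir-151a. The third was mir-222 for mir-28 (53.7%) and mir-3662 for mir-151a (54.5%). The likeness lay more on the 5′ side of the loop (65.4% identity, with an identical run of 16 nt) than on the 3′ side (54.4%, longest run 7 nt). The 3′ side carries the miRNAs whose variation was scored. Whether reads of one hairpin could be assigned to the other was not tested, since the mapping settings are unknown.

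Among the 48 pairs at least as alike as mir-28 and mir-151a, no other pair had an increase of at least 0.1 in 1 hairpin and a decrease of at least 0.1 in the other. At a limit of 0.05 other pairs did so too. These were mir-95 (0.152) with mir-421 (-0.0936), and let-7d (-0.0508) with let-7a-1 (0.228), let-7f-1 (0.0828) and let-7f-2 (0.252). The pair of mir-28 and mir-151a was chosen for that contrast, so its own place says nothing further. The changes of mir-28 and mir-151a lay 0.714 apart. In the 48 pairs the median gap was 0.0791, and a single pair had a wider one, let-7a-3 with let-7e (0.764). Over all 10704 pairs the median gap was 0.149, and 605 pairs had opposite changes of at least 0.1. Many of the 48 pairs come from the let-7 and miR-320 families and share members, so they are not independent.

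The predicted structures (RNAfold, minimum free energy) had similar free energies over the whole deposited sequences and differed near the loop. The free energy was -50.7 kcal/mol for mir-28 and -51.2 kcal/mol for mir-151a, more negative than the median of -44.2 over all hairpins. The value of mir-151a includes a small hairpin in its 3′ flank, so these energies do not compare the main stems alone. Both stems were cleaner than most, with 10 unpaired stem bases in mir-28 and 7 in mir-151a against a median of 15. The main stem had 35 base pairs in mir-28 and 29 in mir-151a (median 34). In mir-28 this stem runs to position 96, beyond the end of miR-28-3p at position 85. All these values are for the deposited sequences, and the part that DICER cuts was not folded on its own. GC content was 46.2% and 51.8% (median 51.7%).

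In mir-28 the loop side was built of several short elements. A loop of 6 nt closed a helix of 5 pairs. Below it came 4 unpaired bases on the 3′ side only, then 2 pairs, then a mismatch of 1 base on each side, and then an unbroken helix of 16 pairs. That helix was longer than the longest helix of 120 of the other hairpins. The asymmetric run of 4 bases ends directly before the first base of miR-28-3p, as the capitals UUCC in front of the miRNA show in the sequence above. The first base of miR-28-3p, at position 64 of the deposited hairpin, was predicted as paired with position 43. It lay 9 nt beyond the loop, further than in 115 of 132 hairpins for which this distance could be read (median 5 nt). Of the 22 bases of miR-28-3p 20 were predicted as paired, and of its 7 seed bases 6.

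In mir-151a the loop side was simpler. A loop of 8 nt was closed by a lone pair, followed by a mismatch of 1 base on each side and a helix of 10 pairs. Counting the lone pair and the mismatch as open gives an apical region of 12 nt, against 6 nt in mir-28. Further down came 2 unpaired bases opposite 1, a helix of 12 pairs, a mismatch and 6 pairs. The base aligned with the start of miR-28-3p, at position 55, lay 2 nt beyond the loop and was paired. This is a position by alignment and not a measured end of miR-151a-3p. No run of several unpaired bases on the 3′ side alone stood before it, unlike in mir-28.

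**Figure D2:**
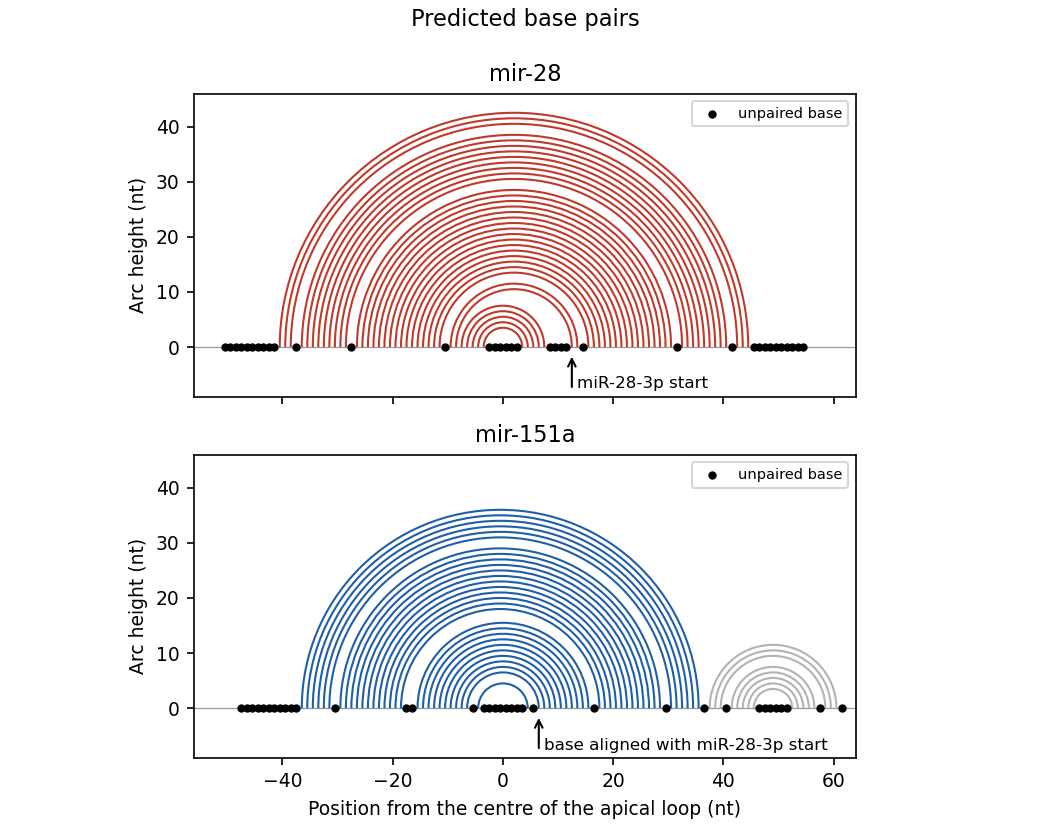
Predicted base pairs of mir-28 and mir-151a, drawn as arcs over the position from the centre of the apical loop (x axis, nt), with arc height in nt on the y axis. Coloured arcs belong to the main stem, grey arcs to a small hairpin in the 3′ flank of mir-151a, and black dots are unpaired bases. The start of miR-28-3p lies 9 nt beyond the loop, behind 4 unpaired bases, and the aligned base of mir-151a 2 nt beyond it.

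The loops of the neighbours by score are given as a description only, since these hairpins were picked by the same scores as the pair. The predicted loops of the 5 hairpins nearest to mir-28 had 4 nt (mir-7-1, mir-126 and mir-3158-1), 3 nt (mir-30c-1) and 15 nt (mir-3158-2). The predicted loop can thus differ widely between copies that make the same miRNA, which limits all comparisons by loop size below. The loops of the hairpins nearest to mir-151a had 12 nt (mir-425 and both mir-101 copies), 9 nt (mir-760) and 5 nt (let-7d). Over the table, the median loop was 6 nt in the 55 hairpins with an increase of at least 0.1, 10 nt in the 11 with a decrease of at least 0.1 and 7 nt in all. Loop size and change were weakly and inversely related across the 147 hairpins (Spearman's rho -0.33), a description across hairpins, some of which are copies. For the apical region, which sets mir-28 and mir-151a further apart than the loop does, rho was only -0.13, with medians of 10 nt among the increases, 12 nt among the decreases and 11 nt in all. Beside 106 of 147 hairpins higher with DICER-delHelicase in the table, 59 of 73 were higher with loops of up to 6 nt, as in mir-28. Of these 73, 36 increased by at least 0.1, and the median change was 0.0931. With loops of 7 or 8 nt, as in mir-151a, 27 of 29 were higher, but only 8 increased by at least 0.1, and the median change was 0.00777. These 29 include 5 copies of mir-941 with a single value (change 0.00524). With loops of 9 nt or more 20 of 45 were higher and 23 lower, with a median change of -0.000234. By its apical region of 12 nt mir-151a lay with the 92 hairpins of 9 nt or more (61 higher, 29 lower).

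**Figure D3:**
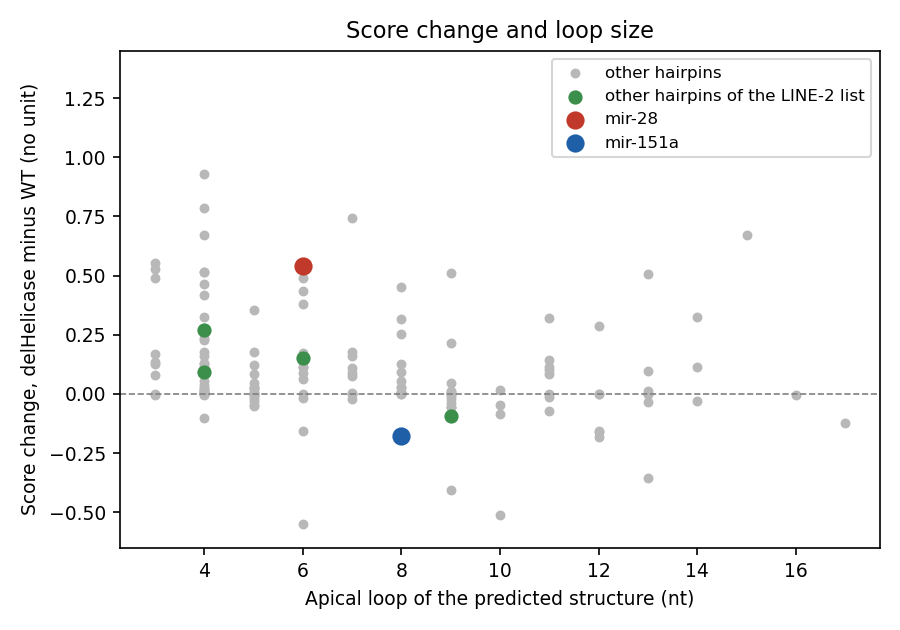
Apical loop of the predicted structure (x axis, nt) against the change of the variation score, delHelicase minus WT (y axis, no unit), with 1 point per hairpin. The point of mir-28 (6 nt, 0.539) lies at the top of its column and that of mir-151a (8 nt, -0.176) at the bottom of its column. Green points are the other hairpins of the LINE-2 list.

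Other members of the miR-28 family (mir-151b and mir-708) had no line in the table. A wider list of 10 hairpins that are described as derived from LINE-2 held 4 more with values, namely mir-95, mir-374a, mir-374b and mir-421. The list was written from general knowledge and was not checked against a repeat annotation. Their mature sequences (RefSeq, GRCh38.p14) show that no seed, in capitals, is shared with miR-28-3p.

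miR-95-3p: uUCAACGGguauuuauugagca

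miR-421: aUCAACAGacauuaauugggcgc

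miR-374a-3p: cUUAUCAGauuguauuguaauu

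miR-374b-3p: cUUAGCAGguuguauuaucauu

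Of these 4 hairpins 3 scored higher with DICER-delHelicase and 1 lower, a share close to that of the whole table (106 of 147 higher and 38 lower). The score of mir-95 went from 0.0749 under DICER-WT to 0.227 under DICER-delHelicase. Scores in the same order were 0.0324 and 0.125 for mir-374a and 0.223 and 0.496 for mir-374b. For mir-421 they were 0.164 and 0.0706, the direction of mir-151a. The last 3 lie in introns of FTX, a long non-coding RNA gene of the X-inactivation centre, on the minus strand of chromosome X. With mir-28 and mir-151a the list had a median change of 0.122, against 0.0261 over the table. Besides the pair, 2 hairpins increased by at least 0.1 and none decreased by that much, beside 37.4% and 7.48% in the table.

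Like mir-28 and mir-151a, mir-95 and mir-421 were alike in sequence and moved apart. Their hairpins had 62.0% identical columns, with changes of 0.152 for mir-95 and -0.0936 for mir-421. The seeds of their miRNAs, printed above, are similar but not identical. Hairpins of a single locus also moved apart, since mir-374b (0.272) and mir-421 are annotated 85 nt from each other. In contrast, mir-374a and mir-374b, with 77.7% identity, moved the same way.

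Over the 6 hairpins of the list, the 4 of 2-nt class No (mir-28, mir-95, mir-374a and mir-374b) scored higher with DICER-delHelicase, and the 2 of class Yes (mir-151a and mir-421) scored lower. In the whole table no such division was present, with 51 of 73 hairpins higher in class Yes and 55 of 74 in class No. The loops divided in the same way, with 6, 6, 4 and 4 nt in the hairpins that were higher and 8 and 9 nt in mir-151a and mir-421. All 6 had an offset of 0. The division was noticed after the values were seen and rests on 6 hairpins, with no test. Of these, mir-28 and mir-151a had been chosen for their opposite directions, so their places in it were fixed beforehand. Among the others only mir-421 was lower, by less than the limit of 0.1 (-0.0936).

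**Figure D4:**
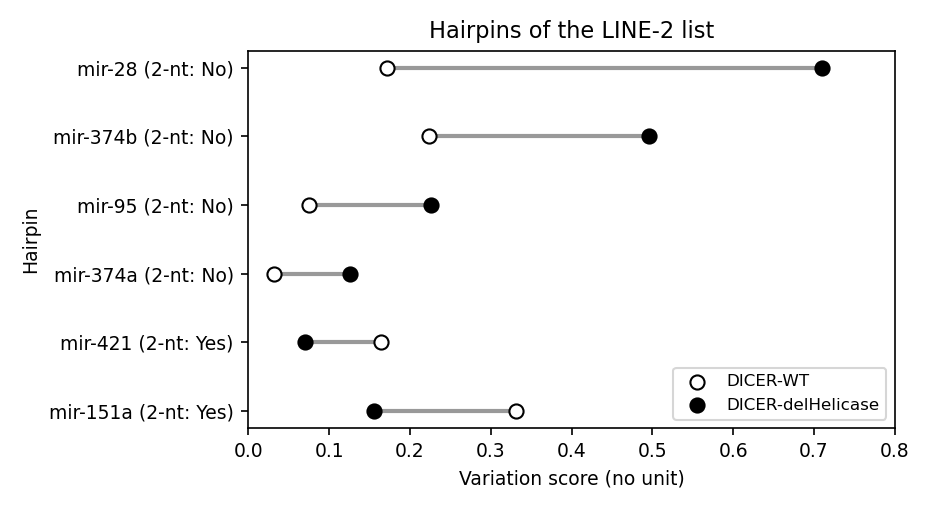
Variation score (x axis, no unit) of the 6 hairpins of the LINE-2 list in the table (y axis, with the 2-nt class), with DICER-WT as open and DICER-delHelicase as filled points. The filled point lies to the right in the 4 hairpins of class No, from 0.125 to 0.710, and to the left in mir-421 and mir-151a.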

How the data were processed

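The table used here holds 294 lines, 1 per hairpin and DICER construct. Its main value is a variation score, which the authors deposited under the header of a global variation, with no formula. Per the labels' protocols, a small RNA fraction from 10 µg of total RNA was cut from a 12% urea gel and made into libraries with a TruSeq small RNA kit. The submitters' processing notes name cutadapt, Bowtie2, bedtools and the build GRCh38, with neither versions nor settings. A line names its construct and no sample, the depth is unknown, and the design foresaw no test for such a table.

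The change is the delHelicase score minus the DICER-WT score (Python 3.11.15, pandas 2.3.3), and the limit for counts was 0.1. Deposited hairpin sequences were folded with RNAfold 2.7.2 at 37 °C. The main stem is the one whose loop is enclosed by most pairs, and the apical region lies inside the innermost helix of at least 3 pairs. Hairpins were aligned pairwise with Biopython 1.88 (match 1, mismatch 0, gap opening -1, extension -0.5), whole and on each side of the loop centre. The folding step was tested on simulated hairpins, and the alignment step on a random sequence with substituted bases and no gaps. Locations come from GENCODE release 29 (GRCh38). The members and lists were chosen with earlier results of these data known. Named hairpins are the pair, the list members in the table and the 5 nearest by score. Also named are the 3 on either side by change and the 3 most alike by alignment. Picked with their values in view were let-7a-1, let-7a-3, let-7e, let-7f-1, let-7f-2 and the pairs of the closing section. The comparisons by loop size, by 2-nt class and among alike pairs were picked in the same way.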

Additional observations from a re-analysis of the deposited data

How the results depend on the processing

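On a log2 scale the ratio of the scores was 2.05 for mir-28 and -1.09 for mir-151a, the directions of the differences. By that ratio mir-28 ranked 22 from the largest of 139 hairpins with scores above 0, instead of 7, and mir-151a 11 from the smallest, instead of 6. With offset-0 hairpins alone mir-28 stayed at 7 and mir-151a came to 2, since 4 of the 5 hairpins with larger decreases have another offset. With 1 value per miRNA both ranked 6. The 55 increases past 0.1 became 30 past 0.2, and the 11 decreases became 17 past 0.05 and 4 past 0.2, where mir-151a no longer counts. The loop sizes of mir-28 and mir-151a were the same in the centroid, the maximum expected accuracy and, added after the data were seen, the -d0 structures. These structures were not compared for the other hairpins. Other alignment penalties gave 62.0% identity for the pair. No paired analysis was possible because no score is tied to a single sample. For the same reason no replicate was left out. The unknown depth limits the reading of small changes.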

Other observations

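Other pairs of alike hairpins also had unequal changes, here named after their values were seen. The hairpins mir-500a and mir-501 had 84.6% identical columns, the highest value among pairs with different miRNA names, with changes of 0.512 and -0.0195. For mir-500a and mir-502 (82.1% identity) the change of mir-502 was -0.00679. The let-7e hairpin changed by 0.931 and let-7f-2, at 64.4% identity, by 0.252. In mir-103a-2 and mir-107 (77.2% identity) the changes were 0.176 and 0.00943. In contrast, mir-30a and mir-30d (72.5% identity) changed by 0.326 and 0.325, and mir-501 and mir-502 (79.2% identity) both stayed near 0.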
